A study of Mus musculus with 13 samples.

Results

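The Wnt genes described here are 49 genes of 26264 listed for mouse right ventricles, chosen by name: 10 Wnt ligands, 2 genes of ligand secretion, 9 Frizzled receptors, 5 co-receptors, 6 genes of the R-spondin axis, 9 secreted antagonists, 4 intracellular feedback regulators and 4 TCF/LEF transcription factors. Polyadenylated RNA of right ventricles was sequenced in 7 libraries from mice carrying Dsg2 F536C and in 6 libraries from wild-type mice. Desmoglein 2, encoded by Dsg2, is a cadherin of the desmosomes between cardiomyocytes, and the substitution is the mouse counterpart of the human change F531C, per the series text. The series concerns PPAR-gamma in arrhythmogenic cardiomyopathy, an inherited disease with scarring and rhythm disturbance of the heart. The labels name no drug, strain, sex, age, zygosity or batch for any library, and no label ties a library to an animal of its own. The p-values therefore measure the spread between libraries, part of which may be technical.

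Wnt proteins are lipid-modified signals that bind Frizzled receptors. Together with Lrp5 or Lrp6 they stabilise beta-catenin, which acts with TCF/LEF factors on target genes; with Ror or Ryk they act through other branches that shape cell polarity and movement. Secreted antagonists bind the ligands or the co-receptors, R-spondins keep Frizzleds at the surface, and target genes such as Axin2 dampen the signal. In the heart the pathway is active during development and becomes active again in injured muscle, mostly in fibroblasts and other non-muscle cells, and in cultured preadipocytes it restrains fat cell formation.

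Read totals lay between 14498336 and 29848597 per library. Dsg2 itself was at 33.4, 47.8 and 61.9 CPM (read numbers scaled to library size by TMM; lowest, median and highest) in knock-in libraries, against 84.3, 98.4 and 116 CPM in wild-type ones. All 8 cardiomyocyte markers were present in every group, with summed levels of 19913 to 38839 CPM in knock-in and 45685 to 66172 CPM in wild-type libraries. The libraries knock-in 4, 5 and 6 formed a set of their own. Fractional read numbers made up 10.2% to 10.7% of their genes, against 3.07% to 3.79% elsewhere, and 7 epithelial markers summed to 2139 to 3308 CPM in them, 12 to 27.5 CPM in knock-in 1, 2, 3 and 7 and 7.92 to 28.6 CPM in wild type. Each test is therefore given with all 13 libraries and with the 10 that remain without these 3. No wild-type library resembled them in these measures.

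Secreted Frizzled-related proteins and Frizzled receptors made up most of the Wnt genes that rose in both sets of libraries. Of the 49 genes, 44 passed the filter on low counts; Wnt6, Rspo2, Rnf43, Notum and Lef1 did not. With 13 libraries 14 were higher in knock-in (31.8% of those tested, where 23.6% of all tested genes were called higher) and 2 were lower (4.55%, where 21% of all were), at an adjusted p under 0.05 in edgeR's quasi-likelihood test. With 10 libraries 18 were higher (40.9%, against 22.3% of all tested genes) and 4 were lower (9.09%, against 21.3%). Both sets called 11 genes higher (Sfrp1, Sfrp2, Sfrp4, Frzb, Dkk3, Nkd2, Fzd1, Fzd2, Fzd7, Lrp5 and Wnt10b) and 2 lower (Wnt5a and Sfrp5). None was called in opposite directions. Every knock-in library was above every wild-type one for 6 of the 44 tested genes with 13 libraries, where 8.6% of all genes were so separated, and for 9 with 10, where 14.8% were. Every knock-in library was below for 1 (background 10.5%) and 2 (background 15.1%). The median log2 fold change, knock-in over wild type, was 0.36 over the tested Wnt genes and 0.08 over all genes with 13 libraries, and 0.32 and 0.02 with 10. Scaling by library totals instead of TMM moved the median of all genes to 0.33 and 0.26, and that of the Wnt genes to 0.60 and 0.57. With that scaling 27 higher and 1 lower Wnt genes were called with 13 libraries and 26 higher and 2 lower with 10, beside 6110 higher and 1661 lower and 6049 higher and 1528 lower over all genes. Wnt5b, Fzd6, Ryk, Rspo3 and Axin1, called in neither set, passed upward in both with it.

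**Figure D1:**
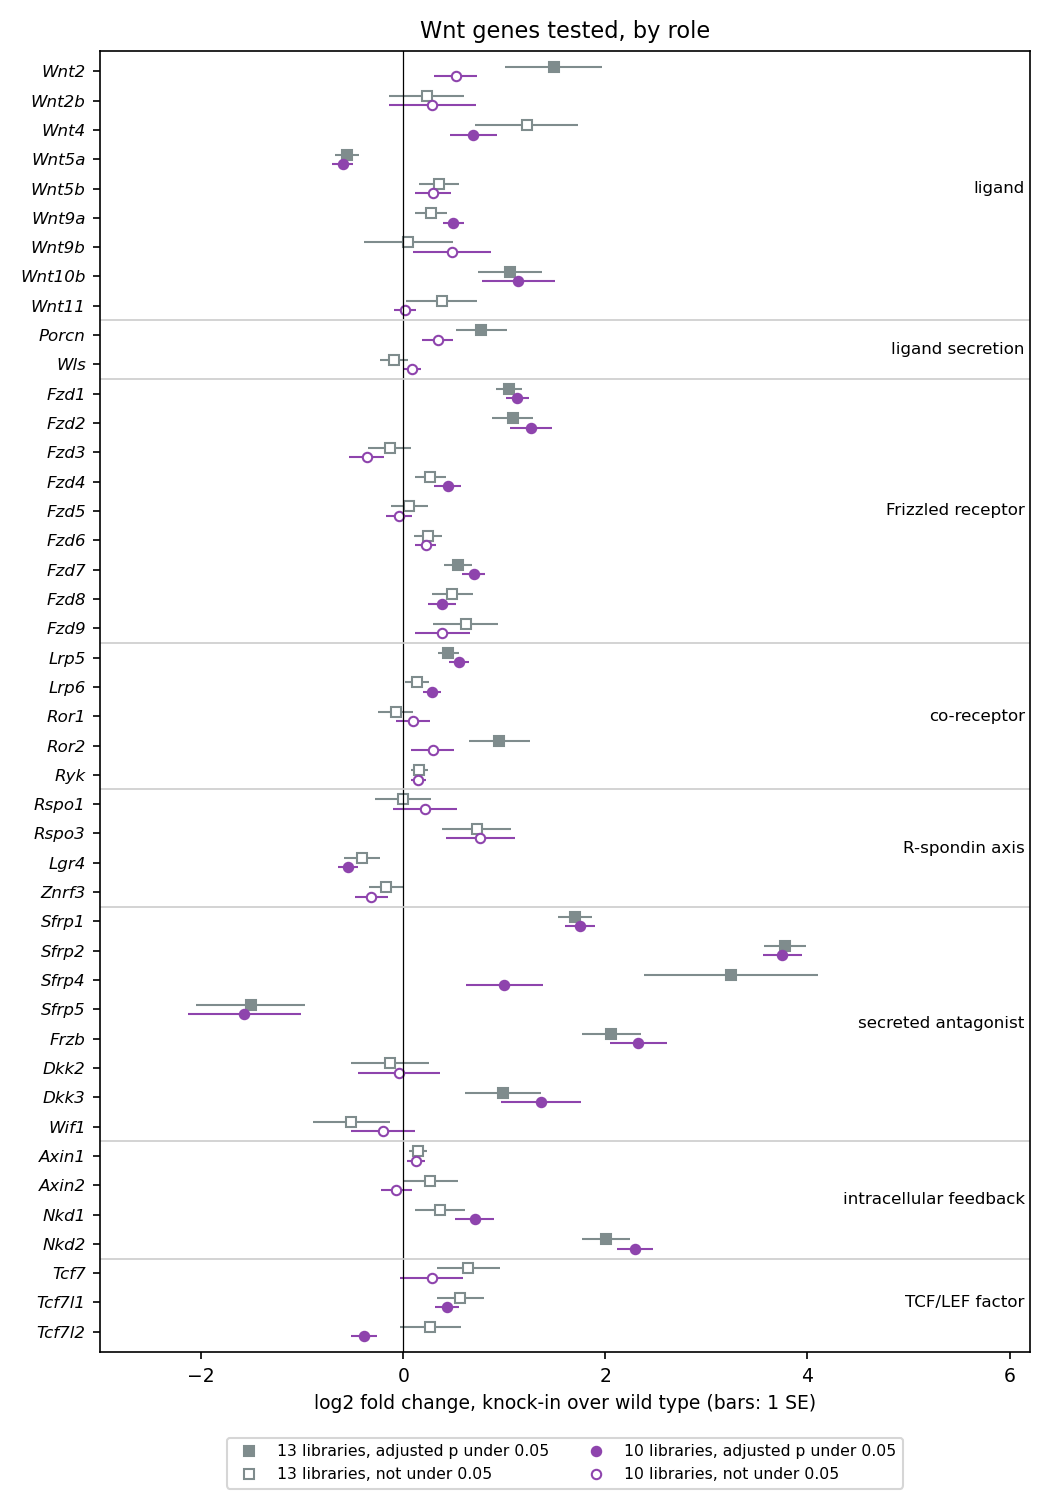
Log2 fold change of each tested Wnt gene, knock-in over wild type, with all 13 libraries (squares) and with the 10 libraries without knock-in 4, 5 and 6 (circles); bars are 1 SE, filled symbols have an adjusted p under 0.05, and grey lines part the roles. Sfrp2 lies farthest to the right, at 3.78 and 3.75, and the 2 symbols lie far apart for Sfrp4, at 3.24 and 1.00.

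Secreted antagonists held the largest log2 differences of the tested Wnt genes with 13 libraries, those of Sfrp2, Sfrp4 and Frzb. Sfrp2 encodes a soluble Frizzled-related protein that binds Wnts and is also known to aid procollagen processing. It lay at 128, 147 and 208 CPM (lowest, median and highest) in the 7 knock-in libraries, against 8.94, 10.2 and 18.8 CPM in the 6 wild-type libraries. Knock-in 1, 2, 3 and 7 had 147, 147, 128 and 189.6 CPM, and knock-in 4, 5 and 6 had 208, 139 and 130.1 CPM. Every knock-in library was above every wild-type one, and the values of knock-in 4, 5 and 6 overlapped those of the rest of their group. On the log2 scale Sfrp2 rose by 3.78 ± 0.21 (SE, adjusted p = 1.11e-07) with 13 libraries and 3.75 ± 0.20 (SE, adjusted p = 1.65e-07) with 10. A gene on the opposite strand overlaps Sfrp2 by at least 50 exon bases in the GRCm38 annotation. Reads from the overlapping stretch could not be told apart if strand was not used in counting. In such bulk tissue, more cells that make a transcript and more transcript per cell cannot be told apart. Sfrp1, a second soluble binder of Wnts, was at 106, 138 and 202 CPM in the 7 knock-in libraries, against 38.5, 43.9 and 62.7 CPM in the 6 wild-type libraries, again without overlap. Its values were 138, 144, 135 and 202 CPM in knock-in 1, 2, 3 and 7, highest in knock-in 7, and 106, 137 and 186 CPM in knock-in 4, 5 and 6. Sfrp1 rose, on the log2 scale, by 1.70 ± 0.16 (SE, adjusted p = 9.41e-06) with 13 libraries and 1.75 ± 0.15 (SE, adjusted p = 3.34e-06) with 10. Frzb, also known as secreted Frizzled-related protein 3, was at 22.9, 40.2 and 68.3 CPM in the 7 knock-in libraries, against 6.43, 9.55 and 18.1 CPM in the 6 wild-type libraries. Knock-in 1, 2, 3 and 7 had 50.2, 68.3, 35.4 and 56.6 CPM and knock-in 4, 5 and 6 had 32.4, 40.2 and 22.9 CPM, all above the highest wild-type library. The log2 fold change of Frzb was 2.06 ± 0.29 (SE, adjusted p = 0.000142) with 13 libraries and 2.33 ± 0.28 (SE, adjusted p = 0.000115) with 10. The calls of these 3 genes held without each library in turn in both sets.

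Markers of other cell types were counted beside the antagonists, against 23.6% of all genes higher and 21% lower with 13 libraries and 22.3% and 21.3% with 10. Of the myofibroblast list, 7 of 7 tested markers rose and 0 fell with 13 libraries, and 6 of 7 rose and 0 fell with 10, at summed levels of 1287 to 1999 CPM in knock-in and 288 to 482 CPM in wild-type libraries. Of the fibroblast list, 3 of 9 tested markers rose and 1 fell with 13 libraries, and 6 of 9 rose and 1 fell with 10, at overlapping sums of 5379 to 8407 CPM in knock-in and 4258 to 5902 CPM in wild type. Of the cardiomyocyte list, 0 of 8 tested markers rose and 8 fell with 13 libraries, and 0 of 8 rose and 7 fell with 10. None of these 3 lists had a marker at 0 in any group. Their part in the values of the Wnt genes was not tested.

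**Figure D2:**
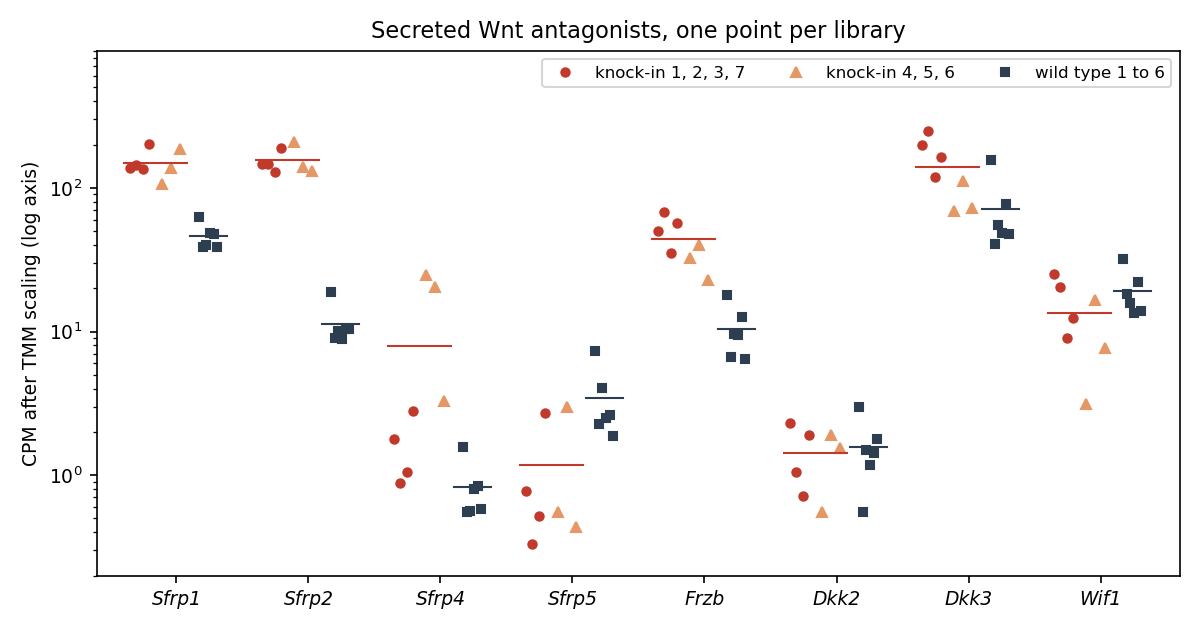
CPM after TMM scaling (log axis) of the 8 tested secreted antagonists, 1 point per library, with knock-in 1, 2, 3 and 7 as circles, knock-in 4, 5 and 6 as triangles and wild type as squares; lines are means over all 7 knock-in and all 6 wild-type libraries. Sfrp2, Sfrp1 and Frzb show no overlap between knock-in and wild type, and Sfrp4 is split within knock-in, at 24.8 and 20.5 CPM in knock-in 4 and 5.

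The promoters of the 4 genes with the largest changes called in both sets and a promoter in the RefSeq table are shown, since a gene that answers to beta-catenin can carry TCF/LEF motifs near its start. Each runs from 250 bases before to 50 after the annotated start, in GRCm38.p6 coordinates from RefSeq and 5′ to 3′ on the gene's strand, with the letters CTTTGA or their reverse complement TCAAAG in capitals. Sfrp2 lies at chr3:83766071-83766370, strand +, Frzb at chr2:80447347-80447646, strand -, Nkd2 at chr13:73847582-73847881, strand - and Sfrp5 at chr19:42202203-42202502, strand -.
Sfrp2: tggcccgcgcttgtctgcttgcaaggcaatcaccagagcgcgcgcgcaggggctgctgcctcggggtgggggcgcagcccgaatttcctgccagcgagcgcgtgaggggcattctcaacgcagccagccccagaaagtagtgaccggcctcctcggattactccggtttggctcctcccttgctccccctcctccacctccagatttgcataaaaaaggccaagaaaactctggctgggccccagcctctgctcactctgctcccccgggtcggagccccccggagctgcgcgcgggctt
Frzb: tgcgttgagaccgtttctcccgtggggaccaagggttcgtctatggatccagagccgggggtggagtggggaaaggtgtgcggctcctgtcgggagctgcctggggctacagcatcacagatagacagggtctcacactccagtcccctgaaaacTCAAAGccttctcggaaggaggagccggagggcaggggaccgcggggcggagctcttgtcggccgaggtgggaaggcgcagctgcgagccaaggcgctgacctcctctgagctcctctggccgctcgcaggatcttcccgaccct
Nkd2: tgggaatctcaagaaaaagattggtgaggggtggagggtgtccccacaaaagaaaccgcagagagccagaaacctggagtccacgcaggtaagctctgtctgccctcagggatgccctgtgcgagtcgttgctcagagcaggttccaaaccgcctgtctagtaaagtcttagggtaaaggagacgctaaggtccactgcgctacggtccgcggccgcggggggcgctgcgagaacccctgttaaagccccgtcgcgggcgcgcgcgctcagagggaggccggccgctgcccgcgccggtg
Sfrp5: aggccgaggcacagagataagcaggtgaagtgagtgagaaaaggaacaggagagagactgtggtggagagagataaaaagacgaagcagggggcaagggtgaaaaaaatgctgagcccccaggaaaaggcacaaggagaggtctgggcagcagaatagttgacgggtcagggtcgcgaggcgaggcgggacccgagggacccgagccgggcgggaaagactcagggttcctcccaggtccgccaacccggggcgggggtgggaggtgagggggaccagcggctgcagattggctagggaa
Only the Frzb window of these 4 held the letters, with the first base at offset -95 from the start, and the windows were 61.3% to 66% G and C. Across both strands, 6 of 42 promoter windows of 33 matched Wnt genes held CTTTGA (14.3%), against 16% of all 32851 windows in the table. The longer form CTTTGAT, whose matches are a subset of these, was in 2 of the Wnt windows (4.76%) and in 3.73% of all. Of the 7 matched genes called in both sets, 2 (Frzb and Fzd1) held CTTTGA. Counted by gene rather than by window, 6 of the 33 matched Wnt genes held it, against 18.2% of all 27025 genes with a promoter. These matches describe the letters in a 300-base window and show neither binding nor its absence.

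Sfrp4, a family member found in scar-forming and bone tissue, was split within knock-in. Knock-in 4 and 5 had 24.8 and 20.5 CPM and knock-in 6 3.3 CPM, whereas knock-in 1, 2, 3 and 7 had 1.79, 0.88, 1.05 and 2.81 CPM and the wild-type libraries 0.559, 0.688 and 1.58 CPM. Knock-in 2 and 3 were below wild type 1, so the groups overlapped in both sets. Its log2 change, knock-in over wild type, was 3.24 ± 0.86 (SE, adjusted p = 0.00933) with 13 libraries and 1.00 ± 0.38 (SE, adjusted p = 0.046) with 10. With 13 libraries it was 2.61, adjusted p = 0.0172 without knock-in 4. The call with 10 libraries was lost without knock-in 7 (0.58, adjusted p = 0.267), and also without knock-in 1 or any of wild type 2 to 6 (adjusted p = 0.0713 to 0.267 over all 7). It was lost with no filter on low counts too (0.99, adjusted p = 0.0513). Dkk3, a divergent member of the Dickkopf family with no settled role at the co-receptors, was at 69.2, 119 and 249 CPM in the 7 knock-in libraries, against 40.5, 51.9 and 157 CPM in the 6 wild-type libraries. Knock-in 1, 2, 3 and 7 had 198, 249, 119 and 164 CPM, a range that held wild type 1 (157 CPM). Knock-in 4 and 6, at 69.2 and 72.7 CPM, were below wild type 5 (77.3 CPM). The log2 fold change of Dkk3 was 0.98 ± 0.38 (SE, adjusted p = 0.0476) with 13 libraries and 1.36 ± 0.39 (SE, adjusted p = 0.0195) with 10. With 13 libraries the call was lost without any of wild type 2 to 6 or knock-in 1, 2, 3, 5 or 7 (adjusted p = 0.052 to 0.0905), and with no filter on low counts (1.00, adjusted p = 0.0531). With 10 it was lost without knock-in 1 or 2 (adjusted p = 0.0559 to 0.0631).

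Sfrp5, a soluble antagonist best known from adipose tissue, was the antagonist that fell. It lay at 0.33, 0.558 and 2.97 CPM in the 7 knock-in libraries, against 1.87, 2.55 and 7.34 CPM in the 6 wild-type libraries. Knock-in 5 and 7, at 2.97 and 2.7 CPM, reached into the wild-type range, and the other 5 knock-in libraries were below it. Its log2 change, knock-in over wild type, was -1.51 ± 0.54 (SE, adjusted p = 0.0359) with 13 libraries and -1.57 ± 0.56 (SE, adjusted p = 0.0379) with 10. The call with 13 libraries was lost without any of wild type 1, 3, 4 and 5 or knock-in 1, 2, 3, 4 and 6 (adjusted p = 0.0522 to 0.101), and with 10 without wild type 1 or 3 or knock-in 1, 2 or 3 (adjusted p = 0.0635 to 0.104). Without knock-in 7 the value with 10 libraries was -2.64, adjusted p = 0.00212. Library totals also ended the call (-1.25, adjusted p = 0.0758 and -1.33, adjusted p = 0.0842), as did no filter on low counts (-1.48, adjusted p = 0.0522 and -1.58, adjusted p = 0.0652) and limma on log2(TPM + 1) (-0.70, adjusted p = 0.0608 and -0.77, adjusted p = 0.0717). Of the adipocyte list, 0 of 5 tested markers rose and 0 fell with 13 libraries (0 at an unadjusted p under 0.05 in edgeR and 0 called by DESeq2), and 0 of 5 rose and 0 fell with 10 (0 at an unadjusted p under 0.05 in edgeR and 0 called by DESeq2). Their summed levels were 6.69 to 105 CPM in knock-in and 21.4 to 172 CPM in wild type, with none at 0. Their part in the level of Sfrp5 was not tested. Wif1, which binds Wnts outside the cell, and Dkk2, which binds Lrp5 and Lrp6, did not pass in either set. Wif1 was at 3.15, 12.5 and 25 CPM in the 7 knock-in libraries, against 13.5, 17.1 and 31.9 CPM in the 6 wild-type libraries, with log2 differences of -0.52 ± 0.38 (SE, adjusted p = 0.282) with 13 libraries and -0.20 ± 0.32 (SE, adjusted p = 0.636) with 10. Dkk2 ranged over 0.558 to 2.33 CPM in knock-in and 0.559 to 2.98 CPM in wild type, and its log2 differences were -0.13 ± 0.39 (SE, adjusted p = 0.797) with 13 libraries and -0.04 ± 0.41 (SE, adjusted p = 0.943) with 10.

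Per length, in TPM as deposited, the 9 antagonists summed to 222, 294 and 357 in knock-in (lowest, median and highest), against 40.001, 49.3 and 114 in wild type. Over all tested genes, the median log2 difference in TPM was 0.38 with 13 libraries and 0.32 with 10 (limma on log2(TPM + 1)). Sfrp2 was 36.7% to 61.1% of the sum in knock-in libraries and 10.3% to 14.9% in wild-type ones, without overlap; in knock-in 1, 2, 3 and 7 it was 36.7% to 45.9%. Sfrp1 was 13% to 28.1% in knock-in and 14.8% to 26.6% in wild type, Frzb 5.2% to 10.5% in knock-in and 5.61% to 7.63% in wild type, and Dkk3 10.9% to 33.1% in knock-in and 31.1% to 47% in wild type. Wif1 was 0.776% to 5.67% in knock-in and 14.6% to 21.8% in wild type, without overlap. The share of Sfrp5, at 0.0873% to 0.973% in knock-in against 2.66% to 5.04% in wild type, was also lower without overlap. So was that of Dkk2, at 0.0817% to 0.311% against 0.392% to 1.25%. The sum itself was higher in knock-in, so a gene at an unchanged level holds a smaller share there. Wif1 and Dkk2 were not called in either set. The share of Dkk3 was 21.1% to 33.1% in knock-in 1, 2, 3 and 7, which overlapped wild type, and 10.9% to 18.5% in knock-in 4, 5 and 6, which did not. That of Frzb was 7.82% to 10.5% in knock-in 1, 2, 3 and 7 and 5.2% to 7.8% in knock-in 4, 5 and 6. The lowest and the highest sum in knock-in were both among knock-in 1, 2, 3 and 7. Dkk3 was the most abundant antagonist in wild type, with a median of 16.6 TPM, and Sfrp2 in knock-in, with 119 TPM.

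**Figure D3:**
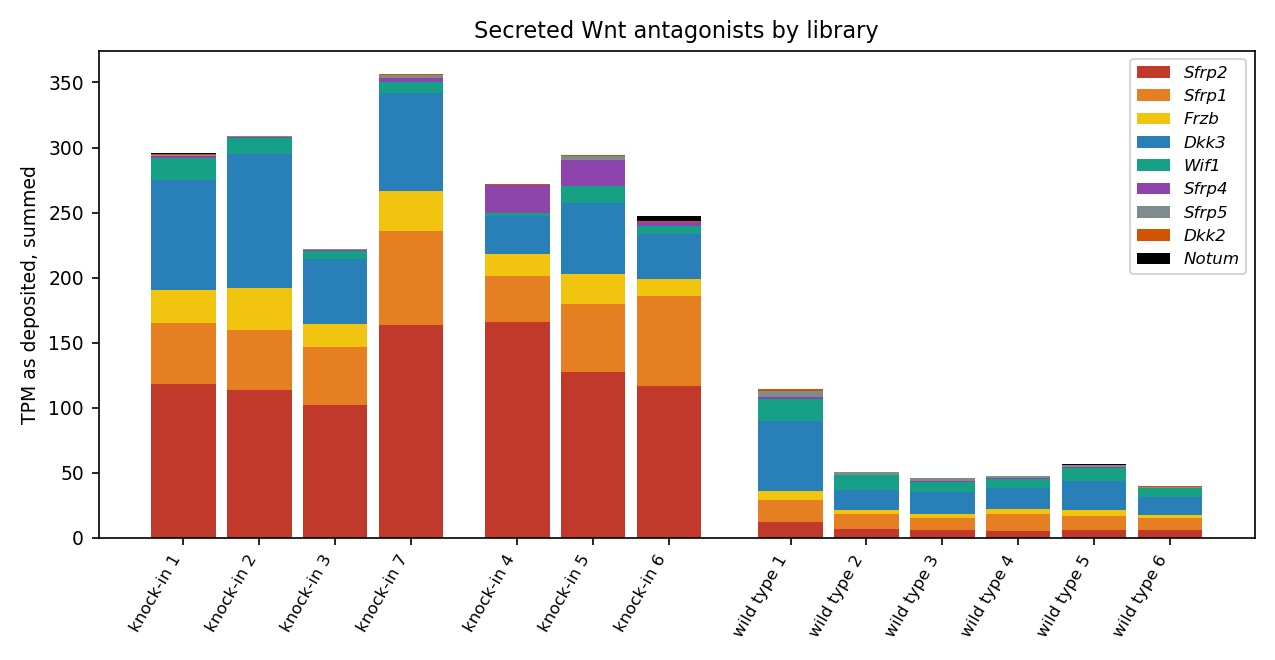
Deposited TPM of the 9 secreted antagonists, stacked per library, with knock-in 1, 2, 3 and 7 at the left, knock-in 4, 5 and 6 in the middle and wild type at the right. The sums run over 222, 294 and 357 TPM (lowest, median and highest) in knock-in and 40.001, 49.3 and 114 TPM in wild type, where wild type 1 is the tallest bar; the Sfrp2 layer is the widest in every knock-in library.

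Among intracellular feedback regulators, Nkd2 rose. Naked cuticle proteins bind Dishevelled and damp the signal behind the receptor. Nkd2 was at 12.5, 19.7 and 28.3 CPM in the 7 knock-in libraries, against 3.24, 4.99 and 6.77 CPM in the 6 wild-type libraries. Values in knock-in 1, 2, 3 and 7 were 24.5, 19.7, 23.7 and 28.3 CPM and those in knock-in 4, 5 and 6 were lower, 15, 14 and 12.5 CPM, all above the wild-type libraries. Its log2 change, knock-in over wild type, was 2.00 ± 0.24 (SE, adjusted p = 3.63e-05) with 13 libraries and 2.29 ± 0.18 (SE, adjusted p = 1.86e-06) with 10, and the call held without each library in turn. The related Nkd1 was called with 10 libraries only: 0.36 ± 0.25 (SE, adjusted p = 0.242) with 13 libraries and 0.71 ± 0.19 (SE, adjusted p = 0.00851) with 10. It had 13.7, 9.08, 9.57 and 12.2 CPM in knock-in 1, 2, 3 and 7, 5.14, 6.13 and 5.97 CPM in knock-in 4, 5 and 6 and 4.85, 6.2 and 9.88 CPM in wild type. Axin2, the target gene most often read as a measure of beta-catenin activity, did not pass. It was at 4.66, 6.16 and 17.1 CPM in the 7 knock-in libraries, against 5.43, 6.58 and 7.76 CPM in the 6 wild-type libraries, and the highest value, 17.1 CPM, was that of knock-in 6. Knock-in 1, 2, 3 and 7 had 6.01, 4.95, 6.16 and 8.1 CPM, and the log2 differences were 0.27 ± 0.27 (SE, adjusted p = 0.429) with 13 libraries and -0.07 ± 0.15 (SE, adjusted p = 0.744) with 10. Axin1, the scaffold of the complex that degrades beta-catenin, ranged over 24.1 to 31.5 CPM in knock-in and 21.3 to 27.8 CPM in wild type, with 0.14 (adjusted p = 0.213) and 0.12 (adjusted p = 0.255).

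Several Frizzled receptors were higher in knock-in. Fzd1 was at 25.1, 32.8 and 37.7 CPM in the 7 knock-in libraries, against 12, 15.5 and 19.6 CPM in the 6 wild-type libraries, without overlap. Knock-in 1, 2, 3 and 7 had 34.6, 32.4, 32.8 and 37.7 CPM, and the log2 change of the gene was 1.05 ± 0.13 (SE, adjusted p = 4.31e-05) with 13 libraries and 1.13 ± 0.11 (SE, adjusted p = 9.95e-06) with 10. Fzd2 was at 11, 13.8 and 24.4 CPM in the 7 knock-in libraries, against 5.78, 7.4 and 11.3 CPM in the 6 wild-type libraries, so that knock-in 2, at 11 CPM, fell just under the highest wild-type library, wild type 1 at 11.3 CPM. The other 3 of knock-in 1, 2, 3 and 7 had 20.5, 18.9 and 24.4 CPM. The log2 fold change of Fzd2 was 1.08 ± 0.20 (SE, adjusted p = 0.000923) with 13 libraries and 1.26 ± 0.21 (SE, adjusted p = 0.000355) with 10. Fzd7, with 18.5, 24.4 and 33.2 CPM in the 7 knock-in libraries, against 14.7, 17.4 and 21 CPM in the 6 wild-type libraries, overlapped only through knock-in 6 (18.5 CPM); knock-in 1, 2, 3 and 7 had 29.4, 24.4, 29.7 and 33.2 CPM. Fzd7 was at 0.54 ± 0.14 (SE, adjusted p = 0.00613) with 13 libraries and 0.70 ± 0.11 (SE, adjusted p = 0.000311) with 10. The calls of Fzd1, Fzd2 and Fzd7 held without each library in turn. Some of their read numbers in knock-in 4, 5 and 6 were not whole, unlike those in the other libraries. Fzd4 and Fzd8 were called with 10 libraries only. Fzd4, the receptor of the vascular ligand norrin, ranged over 36.1 to 68.4 CPM in knock-in and 34.9 to 56.3 CPM in wild type and had log2 differences of 0.27 ± 0.15 (SE, adjusted p = 0.166) with 13 libraries and 0.44 ± 0.13 (SE, adjusted p = 0.0156) with 10, and the call was lost without knock-in 2 (0.32, adjusted p = 0.0666). Without wild type 2 it passed with 13 libraries too (0.40, adjusted p = 0.0289), and without knock-in 2 it was at 0.17, adjusted p = 0.317. Fzd8 ranged over 4.37 to 12.3 CPM in knock-in and 4.89 to 6.94 CPM in wild type and had 0.48 ± 0.20 (SE, adjusted p = 0.0666) with 13 libraries and 0.38 ± 0.14 (SE, adjusted p = 0.0408) with 10. Its call was lost without any of knock-in 1, 2, 3 and 7 or wild type 1, 3, 4 and 6 (adjusted p = 0.0563 to 0.16) and with no filter on low counts (0.38, adjusted p = 0.0583), and without knock-in 6 it passed with 13 libraries (0.59, adjusted p = 0.0132). Fzd3, Fzd5, Fzd6 and Fzd9 did not pass in either set, with log2 differences of -0.14, 0.06, 0.25 and 0.62 with 13 libraries and -0.36, -0.05, 0.22 and 0.38 with 10. Fzd3 and Fzd6, known for planar polarity, ranged over 5.01 to 11.8 and 33.9 to 60.7 CPM in knock-in, against 5.74 to 11 and 31.6 to 39.1 CPM in wild type. Fzd5 ranged over 5.54 to 13.3 CPM in knock-in and 7.15 to 10.4 CPM in wild type, and Fzd9 over 0.916 to 3.23 CPM in knock-in and 0.652 to 1.56 CPM in wild type. The read numbers of Fzd5 and Fzd9 were not whole in knock-in 6 alone. Without knock-in 3, Fzd6 passed with 10 libraries (0.29, adjusted p = 0.0379), whereas it was at 0.13, adjusted p = 0.349 without knock-in 2, and without wild type 3 so did Fzd3, downward (-0.44, adjusted p = 0.045).

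**Figure D4:**
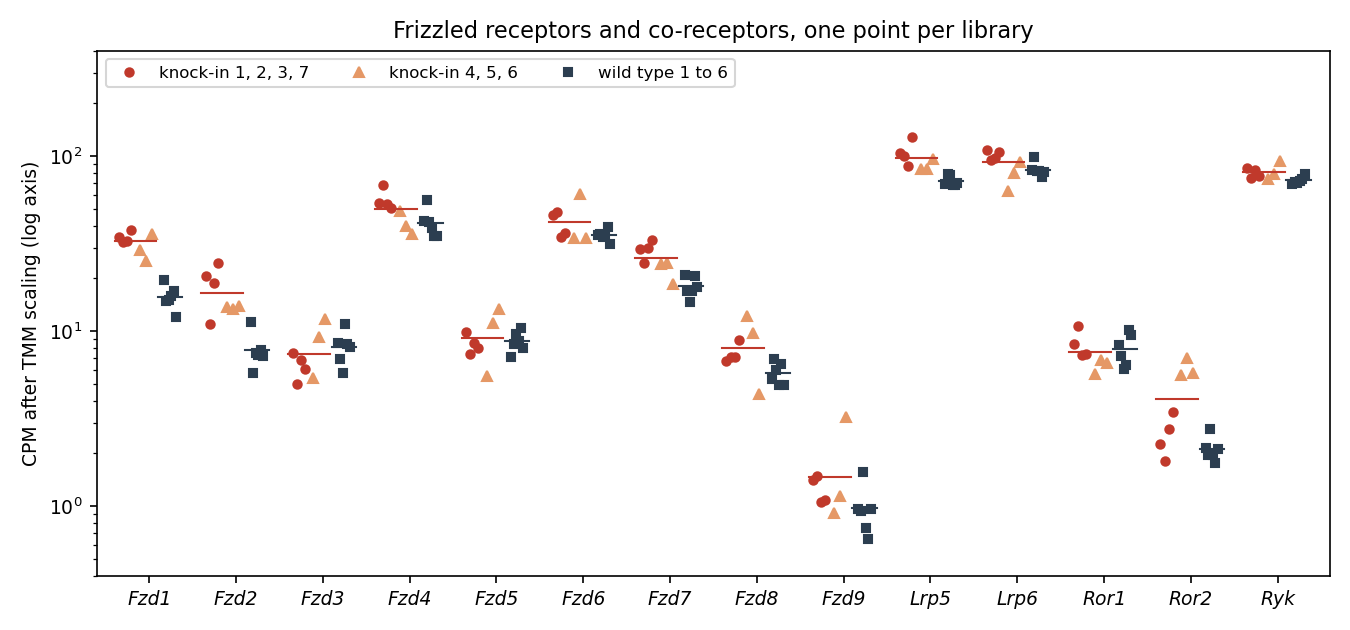
CPM after TMM scaling (log axis) of the 9 Frizzled receptors and 5 co-receptors, 1 point per library, with knock-in 1, 2, 3 and 7 as circles, knock-in 4, 5 and 6 as triangles and wild type as squares; lines are means over all libraries of a genotype. Fzd1 and Lrp5 show no overlap between knock-in and wild type, and Ror2 is high only in the triangles, at 5.58, 6.97 and 5.75 CPM.

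Per length, Fzd4 was the most abundant Frizzled in both genotypes, with medians of 20.6 TPM in knock-in and 11.9 TPM in wild type. Fzd6 followed, with 14.3 TPM in knock-in and 9.83 TPM in wild type. Deposited TPM ran higher in knock-in over all tested genes. Their median log2 difference was 0.38 with 13 libraries and 0.32 with 10, with limma on log2(TPM + 1). The share of Fzd1 in the summed TPM of all Frizzleds was 12.8% to 20.9% in knock-in and 9.42% to 12.8% in wild type, and that of Fzd2 was 6.27% to 13.6% in knock-in and 4.42% to 8.97% in wild type. In knock-in 1, 2, 3 and 7 alone the shares were 15.2% to 17.2% for Fzd1 and 6.27% to 13.6% for Fzd2. Of the co-receptors, Lrp5, which pairs with Frizzled in the beta-catenin branch, was higher in every knock-in library. It was at 84.5, 96 and 129 CPM in the 7 knock-in libraries, against 68, 69.7 and 78.8 CPM in the 6 wild-type libraries, with 105, 100.4, 87.4 and 129 CPM in knock-in 1, 2, 3 and 7. The log2 fold change of Lrp5 was 0.45 ± 0.11 (SE, adjusted p = 0.00468) with 13 libraries and 0.55 ± 0.10 (SE, adjusted p = 0.000713) with 10. Its partner in function, Lrp6, was called with 10 libraries only, at 0.14 ± 0.12 (SE, adjusted p = 0.374) with 13 libraries and 0.28 ± 0.09 (SE, adjusted p = 0.0158) with 10. Lrp6 ranged over 63.2 to 109 CPM in knock-in and 76 to 98.4 CPM in wild type, and its call was lost without knock-in 1 (0.24, adjusted p = 0.0653). Ror2, a receptor kinase for Wnt5a, was called with 13 libraries only, at 0.95 ± 0.30 (SE, adjusted p = 0.0209) with 13 libraries and 0.29 ± 0.21 (SE, adjusted p = 0.29) with 10. Knock-in 4, 5 and 6 had 5.58, 6.97 and 5.75 CPM, against 2.28, 1.82, 2.75 and 3.44 CPM in knock-in 1, 2, 3 and 7 and 1.76, 2.05 and 2.76 CPM in wild type. Ror1 and Ryk, the remaining co-receptors, did not pass. Ror1 ranged over 5.66 to 10.7 CPM in knock-in and 6.09 to 10.2 CPM in wild type and had log2 differences of -0.07 (adjusted p = 0.738) and 0.09 (adjusted p = 0.687). Ryk, the most abundant co-receptor at medians of 40.6 TPM in knock-in and 26.3 TPM in wild type, was at 0.16 (adjusted p = 0.121) and 0.15 (adjusted p = 0.123).

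Of the ligands, Wnt5a fell and Wnt10b rose in both sets. Wnt5a, the main ligand of the branches that do not use beta-catenin, was at 13.9, 16.8 and 20.6 CPM in the 7 knock-in libraries, against 23.8, 25.1 and 29.5 CPM in the 6 wild-type libraries, and every knock-in library was below every wild-type one. Its values in knock-in 1, 2, 3 and 7 were 19.9, 14.4, 16.6 and 16.8 CPM. On the log2 scale Wnt5a changed by -0.56 ± 0.12 (SE, adjusted p = 0.00182) with 13 libraries and -0.60 ± 0.10 (SE, adjusted p = 0.000433) with 10. The call held without each library in turn and with library totals. As for Sfrp2, a gene on the opposite strand overlaps its exons. With limma on log2(TPM + 1), where the median of all genes was at 0.38 and 0.32, the call was lost (-0.11, adjusted p = 0.388, and -0.18, adjusted p = 0.217), as it was on log2(TPM + 0.1) (-0.13, adjusted p = 0.391, and -0.21, adjusted p = 0.219). Wnt10b, a ligand known for restraining fat cell formation, was scarce, at 0.935, 1.11 and 1.7 CPM in the 7 knock-in libraries, against 0.266, 0.504 and 1.06 CPM in the 6 wild-type libraries. It had 1.11, 0.935, 1.7 and 1.54 CPM in knock-in 1, 2, 3 and 7. The groups overlapped in that knock-in 2 and 5 were below wild type 1. Its log2 change, knock-in over wild type, was 1.06 ± 0.32 (SE, adjusted p = 0.0153) with 13 libraries and 1.14 ± 0.36 (SE, adjusted p = 0.0208) with 10, and the call with 10 libraries was lost without knock-in 3 or 7 (adjusted p = 0.059 to 0.0677). Wnt9a was called with 10 libraries only, at 0.27 ± 0.16 (SE, adjusted p = 0.178) with 13 libraries and 0.50 ± 0.10 (SE, adjusted p = 0.00134) with 10. It had 12.6, 13, 15.2 and 14 CPM in knock-in 1, 2, 3 and 7, 9.88, 10.6 and 6.94 CPM in knock-in 4, 5 and 6 and 8.35, 9.84 and 10.4 CPM in wild type. Without knock-in 6 it passed with 13 libraries too (0.37, adjusted p = 0.0271).

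Wnt2 and Wnt4 were high in single knock-in libraries. Wnt2 had 14.9 and 19.9 CPM in knock-in 4 and 6, 5.09, 3.08, 2.56, 3.12 and 4.77 CPM in knock-in 1, 2, 3, 5 and 7 and 1.96, 2.88 and 2.98 CPM in wild type. Its log2 difference was 1.49 ± 0.48 (SE, adjusted p = 0.0234) with 13 libraries and 0.52 ± 0.22 (SE, adjusted p = 0.0661) with 10. With 10 libraries it passed without knock-in 2 (0.60, adjusted p = 0.0471) or without knock-in 3 (0.66, adjusted p = 0.0213). Wnt4 had 12.1 CPM in knock-in 5, the highest of a range of 1.22 to 12.1 CPM in knock-in 4, 5 and 6. It had 1.7 to 3.19 CPM in knock-in 1, 2, 3 and 7 and 1.24 to 1.93 CPM in wild type. For Wnt4 the log2 difference was 1.22 ± 0.51 (SE, adjusted p = 0.0626) with 13 libraries and 0.69 ± 0.23 (SE, adjusted p = 0.0265) with 10. The call with 10 libraries was lost without wild type 5, knock-in 1 or knock-in 2 (adjusted p = 0.0527 to 0.101), and with 13 it was made without knock-in 3, 4 or 6 (1.34, adjusted p = 0.0484; 1.37, adjusted p = 0.0423; 1.38, adjusted p = 0.0376). Without knock-in 5 the value with 13 fell to 0.44, adjusted p = 0.192. Wnt11, a ligand of heart development, had 28.8 CPM in knock-in 6 and 7.61, 9.08, 7.34, 6.05, 4.88 and 7.79 CPM in the other knock-in libraries, against 7.05, 7.81 and 8.64 CPM in wild type. It did not pass, at 0.38 ± 0.35 (SE, adjusted p = 0.393) with 13 libraries and 0.02 ± 0.11 (SE, adjusted p = 0.923) with 10. Wnt2b, Wnt5b and Wnt9b did not pass either, with log2 differences of 0.23, 0.36 and 0.05 with 13 libraries and 0.29, 0.30 and 0.48 with 10. Wnt2b ranged over 1.35 to 2.7 CPM in knock-in and 0.816 to 4.15 CPM in wild type. Wnt5b, another ligand of the branches without beta-catenin, ranged over 3.01 to 6.31 CPM in knock-in and 2.15 to 4.05 CPM in wild type, and Wnt9b over 0.956 to 8.36 CPM in knock-in and 2.32 to 7.2 CPM in wild type. Wnt2b reached 4.15 CPM in wild type 4, and without that library it passed with 13 (0.78, adjusted p = 0.047), whereas it was at 0.08, adjusted p = 0.869 without wild type 1. Per length, Wnt5a made up 9.78% to 18.8% of the summed TPM of the 10 ligands in knock-in (14.2% to 18.8% in knock-in 1, 2, 3 and 7) and 25.2% to 32.4% in wild type, where it was the largest share in every library.

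**Figure D5:**
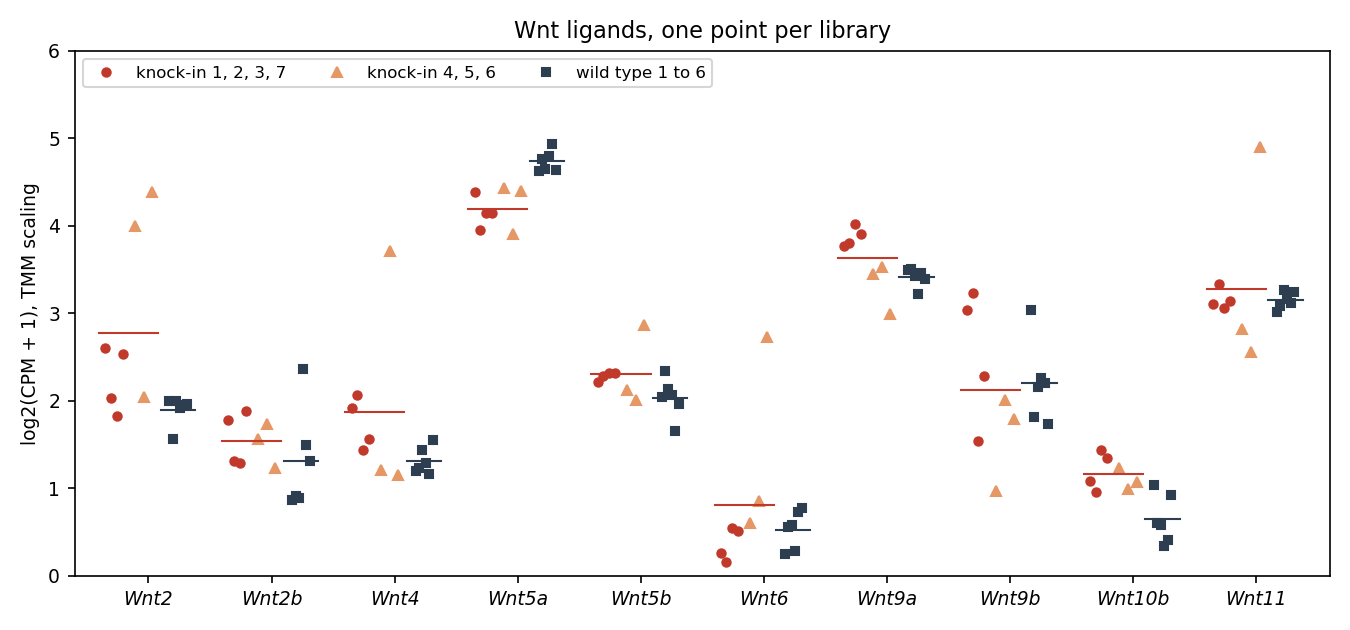
Log2(CPM + 1) after TMM scaling of the 10 Wnt ligands, 1 point per library, with knock-in 1, 2, 3 and 7 as circles, knock-in 4, 5 and 6 as triangles and wild type as squares; lines are means of the log values over all libraries of a genotype. Wnt5a shows no overlap, with knock-in below wild type, and single triangles stand high for Wnt4 (12.1 CPM), Wnt6 (5.62 CPM) and Wnt11 (28.8 CPM).

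Both genes needed to release a Wnt were expressed in every library. Porcn, the acyltransferase that adds the lipid, was at 4.12, 5.24 and 13.3 CPM in the 7 knock-in libraries, against 2.94, 3.85 and 4.6 CPM in the 6 wild-type libraries. It was called with 13 libraries only, at 0.77 ± 0.25 (SE, adjusted p = 0.023) with 13 libraries and 0.34 ± 0.15 (SE, adjusted p = 0.086) with 10, and was at 0.49, adjusted p = 0.0245 without knock-in 6, which had 13.3 CPM. Wls, the carrier that takes Wnts to the surface, was at 67.3, 109.8 and 132 CPM in the 7 knock-in libraries, against 103, 109.6 and 121 CPM in the 6 wild-type libraries. Its log2 difference was -0.09 ± 0.14 (SE, adjusted p = 0.60) with 13 libraries and 0.09 ± 0.08 (SE, adjusted p = 0.419) with 10, and its sign with 13 libraries was not the same in all fits. Library totals gave 0.15, adjusted p = 0.347, and limma on log2(TPM + 1) 0.40, adjusted p = 0.028. With 10 libraries these gave 0.33, adjusted p = 0.00457 and 0.50, adjusted p = 0.00211. In the R-spondin axis 0 of 4 tested genes were called with 13 libraries (2 at an unadjusted p under 0.05 in edgeR and 0 called by DESeq2). Lgr4, a receptor of R-spondins, was called lower with 10. It had 25.8, 31.3, 32.6 and 25.1 CPM in knock-in 1, 2, 3 and 7, all below the 37.9, 40.7 and 48.8 CPM of wild type, while knock-in 4, 5 and 6 had 55.5, 23.9 and 26.7 CPM. The log2 difference was -0.41 ± 0.18 (SE, adjusted p = 0.073) with 13 libraries and -0.55 ± 0.10 (SE, adjusted p = 0.000702) with 10. Without knock-in 4 it was called with 13 libraries too (-0.60, adjusted p = 0.000752). Limma on TPM ended the call with 10, both with a pseudocount of 1 (-0.14, adjusted p = 0.259) and with one of 0.1 (-0.16, adjusted p = 0.263). The ligands Rspo1 and Rspo3 and the ubiquitin ligase Znrf3, which removes Frizzleds from the membrane, did not pass, at -0.01 (adjusted p = 0.988), 0.73 (adjusted p = 0.0933) and -0.17 (adjusted p = 0.434) with 13 libraries and 0.22 (adjusted p = 0.609), 0.76 (adjusted p = 0.0843) and -0.32 (adjusted p = 0.133) with 10. Rspo1 ranged over 6.77 to 15.4 CPM in knock-in and 4.52 to 14.6 CPM in wild type, Rspo3 over 1.22 to 3.88 CPM in knock-in and 0.745 to 2.21 CPM in wild type and Znrf3 over 4.94 to 9.33 CPM in knock-in and 5.85 to 9.35 CPM in wild type. Rspo3 passed with 10 libraries without wild type 1 (0.95, adjusted p = 0.0341) or knock-in 3 (0.95, adjusted p = 0.0369), and was at 0.43, adjusted p = 0.363 without knock-in 1. Rspo2 had 3 to 21 reads in knock-in and 0 to 3 reads in wild-type libraries, too few to be tested.

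The TCF/LEF factors carry the signal to DNA. Tcf7l1, mostly a repressor, was called with 10 libraries, at 0.56 ± 0.23 (SE, adjusted p = 0.062) with 13 libraries and 0.43 ± 0.11 (SE, adjusted p = 0.0077) with 10. It had 18.7, 17.1, 20.5 and 21.3 CPM in knock-in 1, 2, 3 and 7, 12.4, 16.2 and 42.6 CPM in knock-in 4, 5 and 6 and 10.9, 14.6 and 16.5 CPM in wild type. Without knock-in 4 it was called with 13 libraries too (0.66, adjusted p = 0.0276), and without knock-in 6 the value was 0.30, adjusted p = 0.0993. Tcf7l2 changed sign with the set of libraries, at 0.27 ± 0.30 (SE, adjusted p = 0.482) with 13 libraries and -0.39 ± 0.13 (SE, adjusted p = 0.0221) with 10. Knock-in 4 and 6 had 26.6 and 33.4 CPM, above every other library, whereas knock-in 1, 2, 3 and 7 had 9.01, 11.1, 11.5 and 9.995 CPM and wild type 11.3, 13.8 and 16.4 CPM. The read numbers of Tcf7l2 were not whole in knock-in 4, 5 and 6, unlike those in the other libraries. Its call in the smaller set ended when wild type 6, knock-in 1 or knock-in 7 was left out (adjusted p = 0.0501 to 0.0784), with library totals (-0.14, adjusted p = 0.368), and with limma on TPM at a pseudocount of 1 (-0.07, adjusted p = 0.633) or 0.1 (-0.08, adjusted p = 0.64). Tcf7 ranged over 1.16 to 3.2 CPM in knock-in and 0.532 to 1.5 CPM in wild type and did not pass, at 0.64 (adjusted p = 0.105) and 0.28 (adjusted p = 0.488).

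Lef1 and Rnf43 were detected above trace level in knock-in 4, 5 and 6 alone. Lef1 had 6.21, 6.93 and 6.38 CPM there, against 0.0655 to 0.436 CPM in knock-in 1, 2, 3 and 7 and 0.129 to 0.576 CPM in wild type. Rnf43, a ubiquitin ligase that removes Frizzleds and is known from epithelia, had 9.52, 5.56 and 3.33 CPM, against 0.131 to 0.581 CPM in knock-in 1, 2, 3 and 7 and 0 to 0.624 CPM in wild type. Porcn, Ror2 and Sfrp4 were the other genes of the 49 for which all 3 libraries lay above the other 10. The share of all genes separated in this way is not given here. Wnt6 and Notum, which encodes an enzyme that strips the lipid from Wnts, were high in knock-in 6 only, at 5.62 and 4.18 CPM, against at most 0.80 and 0.432 CPM in any other library. Markers of other tissues were high in the same 3 libraries. The epithelial list held 4 tested markers, of which all 4 rose with 13 libraries and 0 with 10 (1 at an unadjusted p under 0.05 in edgeR and 1 called by DESeq2). Its Krt5 was at 0 in every library of wild type and of knock-in 1, 2, 3 and 7, and no member was at 0 in knock-in 4, 5 and 6. The cartilage list summed to 91 to 265 CPM in knock-in 4, 5 and 6, 15.3 to 26.2 CPM in knock-in 1, 2, 3 and 7 and 9.39 to 14.9 CPM in wild type (2 of 3 tested markers rose and 0 fell with 13 libraries, and 1 of 2 rose and 0 fell with 10). The Schwann cell and neuron list summed to 80.8 to 193 CPM in knock-in 4, 5 and 6, 16.7 to 27.6 CPM in knock-in 1, 2, 3 and 7 and 15.6 to 36.5 CPM in wild type (2 of 4 tested markers rose and 0 fell with 13 libraries, and 0 of 4 rose and 0 fell with 10 (0 at an unadjusted p under 0.05 in edgeR and 0 called by DESeq2)). The part of these cell types in the Wnt genes was not tested.

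A further 89 genes of the pathway were counted in 7 lists. Over all of them 29 rose and 8 fell of 69 tested with 13 libraries, and 27 rose and 12 fell of 71 with 10, or 42% and 11.6% against 23.6% and 21% of all genes, and 38% and 16.9% against 22.3% and 21.3%. The median log2 differences were 0.32 and 0.14. Of the 10 other ligands and agonists, 0 were tested with 13 libraries and 1 with 10, and none was called. Of 11 other receptors and co-receptors, 4 rose and 0 fell of 8 tested with 13 libraries, and 4 and 1 of 8 with 10. Of 7 other secreted antagonists, 3 rose and 0 fell of 4 tested with 13 libraries, and 3 and 0 of 4 with 10. Of 17 genes of the destruction complex and Dishevelled, 6 rose and 1 fell of 17 tested with 13 libraries, and 5 and 0 of 17 with 10. Of 14 genes for beta-catenin and its nuclear cofactors, 5 rose and 2 fell of 14 tested with 13 libraries, and 4 and 5 of 14 with 10. In the planar polarity and calcium branch, with 18 genes, 4 rose and 4 fell of 17 tested with 13 libraries, and 3 and 5 of 17 with 10, where 23.5% higher and as many lower with 13 libraries is near the share of all genes. Of 12 further genes used as targets of beta-catenin, 7 rose and 1 fell of 9 tested with 13 libraries, and 8 and 1 of 10 with 10. The 2 rises and 2 falls of smallest p were those of Ccn5 and Cthrc1 and of Tnfrsf19 and Camk2d. Ccn5, a matricellular protein, was at 85, 111 and 131 CPM in knock-in and 4.52, 9.87 and 12.8 CPM in wild type, a log2 difference of 3.53 ± 0.23 (SE, adjusted p = 6.23e-07) with 13 libraries and 3.67 ± 0.24 (SE, adjusted p = 1.76e-06) with 10. Cthrc1, a collagen-associated protein that also marks myofibroblasts, was at 4.0, 12.3 and 65.1 CPM in knock-in and 0.386, 0.645 and 1.3 CPM in wild type, a log2 difference of 5.17 ± 0.78 (SE, adjusted p = 0.000267) with 13 libraries and 3.33 ± 0.32 (SE, adjusted p = 8.78e-06) with 10. The TNF receptor family gene Tnfrsf19 was at 1.51, 2.39 and 3.39 CPM in knock-in and 5.74, 7.93 and 9.06 CPM in wild type, a log2 difference of -1.72 ± 0.20 (SE, adjusted p = 3.76e-05) with 13 libraries and -1.55 ± 0.20 (SE, adjusted p = 6.00e-05) with 10. Camk2d, the calcium-calmodulin kinase of heart muscle, was at 92.1, 105 and 139 CPM in knock-in and 167, 194 and 223 CPM in wild type, a log2 difference of -0.81 ± 0.12 (SE, adjusted p = 0.000149) with 13 libraries and -0.69 ± 0.11 (SE, adjusted p = 0.00037) with 10.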

How the data were processed

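Stranded libraries were made from poly(A)-enriched RNA of right ventricles, per the labels' protocols. DRAGEN and the build GRCm39 (mm39) are named in the submitters' processing notes; for the annotation and the use of strand, the answer is not given in the sources used here. The authors deposited, per the file headers, estimated counts of reads per gene and TPM per library. The members and lists were chosen with earlier results of these data known.

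Estimated counts were rounded, filtered with filterByExpr and scaled by TMM. The genotypes were compared in edgeR 4.0.16 under R 4.3.3, using its robust quasi-likelihood F test with no covariate. Adjustment over all tested genes followed Benjamini-Hochberg, and calls were made at an adjusted p under 0.05. The SE is the log2 change over the root of F. CPM use the TMM scaling of the 13 libraries. The fits were also run on simulated counts, drawn independently for each library, and the outcome is not given here. Groups and replicate numbers came from the titles. All replicate pairs differed by more than sampling noise; for wild type 3 and 6, the most alike, chi-square over its degrees of freedom was 7.19. Alternatives were DESeq2 (1.42.0) and its size factors, library totals, no filter, limma (3.58.1) on log2(TPM + 1) and log2(TPM + 0.1), a replicate block, and each library left out. Members were described with full values if called in both sets, with both fold changes if called in 1 and otherwise by range; of the 89 other pathway genes, the 2 of smallest p in each direction were named. RefSeq promoters (GRCm38.p6) matched 33 members; Axin1, Dkk3, Fzd2, Fzd3, Fzd6, Fzd8, Lrp5, Lrp6, Notum, Porcn, Rspo2, Rspo3, Sfrp1, Sfrp4, Wnt5a and Znrf3 had no entry. In a GENCODE annotation of GRCm38, exons on the opposite strand overlap by at least 50 bases for Axin2, Fzd5, Fzd6, Lef1, Notum, Rspo3, Sfrp2, Tcf7l1, Wnt5a and Wnt11. Their reads from the overlapping stretches could not be told apart from their partners' if counted without strand. Python 3.11.15 was used for tables and figures.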

Additional observations from a re-analysis of the deposited data

Results flagged for a closer look

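Single libraries lay far from the rest of their group for 12 of 132 sets of values tested (44 genes in 3 groups of libraries), by the gap to the nearest library on the log2(CPM + 1) scale against the range of the group. Chance flags about 1 set in 20, here 6.6. Among the 7 knock-in libraries the highest value stood apart for Wnt4 in knock-in 5 (12.1 CPM, next 3.19 CPM), Wnt5b in knock-in 6 (6.31 CPM, next 4.0 CPM), Wnt11 in knock-in 6 (28.8 CPM, next 9.08 CPM), Porcn in knock-in 6 (13.3 CPM, next 6.82 CPM), Fzd9 in knock-in 6 (3.23 CPM, next 1.49 CPM) and Lgr4 in knock-in 4 (55.5 CPM, next 32.6 CPM). Among knock-in 1, 2, 3 and 7 the highest value stood apart for Sfrp1 in knock-in 7 (202 CPM, next 144 CPM) and Tcf7 in knock-in 1 (1.94 CPM, next 1.25 CPM). Among the wild-type libraries the highest value stood apart for Lrp6 in wild type 2 (98.4 CPM, next 83.3 CPM), Sfrp2 in wild type 1 (18.8 CPM, next 10.5 CPM) and Sfrp4 in wild type 1 (1.58 CPM, next 0.848 CPM), and the lowest for Wnt2 in wild type 2 (1.96 CPM, next 2.77 CPM). Knock-in 4, 5 or 6 was the library in question for all 6 sets of the 7 knock-in libraries.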

How the results depend on the processing

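Of the 13 Wnt genes called in both sets, 9 (Wnt5a, Fzd1, Fzd2, Fzd7, Lrp5, Sfrp1, Sfrp2, Frzb and Nkd2) kept their call and direction without each library in turn. Leaving out single libraries gave 13 to 17 higher and 1 to 2 lower Wnt genes with 13 libraries and 13 to 19 higher and 2 to 4 lower with 10, and 2957 to 3653 higher and 2533 to 3177 lower genes of all tested with 13 and 2613 to 3392 higher and 2544 to 3347 lower with 10. The balance of directions depended on scaling. Library totals gave 27 higher and 1 lower Wnt genes with 13 libraries and 26 higher and 2 lower with 10, and 6110 higher and 1661 lower of all genes with 13 and 6049 higher and 1528 lower with 10. With 13 libraries, limma on log2(TPM + 1) gave 28 higher and 0 lower Wnt genes (7665 higher and 1087 lower of all), on log2(TPM + 0.1) 29 higher and 1 lower (7840 higher and 1098 lower), and on log2(TPM + 1) without a filter 29 higher and 0 lower (7492 higher and 1081 lower). With 10 these gave 30 higher and 0 lower (7737 higher and 924 lower of all), 30 higher and 1 lower (7704 higher and 933 lower) and 31 higher and 0 lower (7900 higher and 883 lower). Without a filter on low counts all 49 Wnt genes were tested. That fit called 16 higher and 1 lower with 13 libraries and 17 higher and 3 lower with 10. Each count of higher genes included at least 1 that the filter had left out, since no other Wnt gene gained a call. Leaving out knock-in 4, 5 and 6 gave 18 higher and 4 lower. With 13 libraries Wls reversed to 0.40, adjusted p = 0.028 on log2(TPM + 1), 0.41, adjusted p = 0.0265 on log2(TPM + 0.1) and 0.40, adjusted p = 0.0401 without a filter, and Tcf7l2 to -0.39, adjusted p = 0.0221 without knock-in 4, 5 and 6; the cause was not tested.

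The replicate block, with 6 same-numbered pairs of 13 libraries and 3 of 10, gave 12 higher and 2 lower Wnt genes with 13 libraries (2270 higher and 2541 lower of all genes) and 7 higher and 3 lower with 10 (1385 higher and 1400 lower of all genes). It kept 14 of 16 Wnt calls with 13 libraries and 10 of 22 with 10. The libraries share only a number: deviations of same-numbered libraries correlated at -0.105 to 0.0942 across genes, and no wild-type library correlated best with its own number. Wnt6, Rspo2, Rnf43, Notum and Lef1, which the filter on low counts left out, had medians of 1 to 8.5 reads in wild type. Lef1 and Rnf43 were not low in all knock-in libraries. In the knock-in libraries absent from the smaller set they had 6.21 to 6.93 CPM and 3.33 to 9.52 CPM. Wnt6 and Notum reached 5.62 and 4.18 CPM in 1 knock-in library. The part of depth in leaving these genes out was not tested.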

Other observations

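Wild type 1 was the highest wild-type library for all 8 tested secreted antagonists and for 17 of the 44 tested Wnt genes, against at most 7 in any other wild-type library. This was noticed after seeing the values. The share of all genes for which each library was highest or lowest in its group is not given here. Wild type 1 had 18.8 CPM of Sfrp2, 157 CPM of Dkk3 and 18.1 CPM of Frzb. The same library was highest in wild type for 5 of 5 adipocyte markers (172 CPM summed, 21.4 to 56.9 CPM in wild type 2 to 6), 4 of 4 atrial markers (2148 and 336 to 979 CPM) and 7 of 7 myofibroblast markers (482 and 288 to 412 CPM). It was also highest for 4 of 5 Schwann cell and neuron markers and for 2 of 9 fibroblast markers. Its cardiomyocyte sum, 45685 CPM, was the lowest in wild type. Without wild type 1 the log2 fold change of Sfrp2 was 3.99 (adjusted p = 1.40e-08) with 13 libraries and 3.97 (adjusted p = 2.00e-10) with 10. That of Dkk3 was 1.38 (adjusted p = 0.00502) and 1.76 (adjusted p = 0.000115), and that of Frzb 2.29 (adjusted p = 7.48e-05) and 2.57 (adjusted p = 8.79e-06). That of Sfrp5 was -1.14 (adjusted p = 0.101) and -1.18 (adjusted p = 0.0635), and its call was lost in both sets. The part of these markers in the antagonist levels was not tested.

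Knock-in 6 was the highest knock-in library for 12 of the 44 tested Wnt genes and the lowest for 10. Knock-in 4 was the lowest for 15, and knock-in 7 for 0. Of the marker lists not set beside a result above, in the macrophage list 5 of 7 tested markers rose and 0 fell with 13 libraries, and 7 of 7 rose and 0 fell with 10, with sums of 856 to 2094 CPM in knock-in and 659 to 1004 CPM in wild type. In the endothelial list 0 of 7 tested markers rose and 0 fell with 13 libraries (0 at an unadjusted p under 0.05 in edgeR and 0 called by DESeq2), and 2 of 7 rose and 0 fell with 10, and in the endocardial list 0 of 4 tested markers rose and 0 fell with 13 libraries (1 at an unadjusted p under 0.05 in edgeR and 1 called by DESeq2), and 3 of 4 rose and 0 fell with 10. In the smooth muscle and pericyte list 1 of 7 tested markers rose and 2 fell with 13 libraries, and 2 of 7 rose and 1 fell with 10. In the mesothelial and epicardial list 0 of 5 tested markers rose and 0 fell with 13 libraries (0 at an unadjusted p under 0.05 in edgeR and 0 called by DESeq2), and 0 of 5 rose and 0 fell with 10 (0 at an unadjusted p under 0.05 in edgeR and 0 called by DESeq2), and in the atrial list 1 of 4 tested markers rose and 0 fell with 13 libraries, and 1 of 4 rose and 0 fell with 10.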
